A study of Mus musculus with 12 samples.

Results

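Transcripts of 10 matrix proteases and protease inhibitors were followed in wildtype and emerin-null mouse myogenic progenitors: Mmp2, Mmp3, Mmp9, Mmp14, Timp1, Timp2, Timp3, Adamts1, Adamts2 and Adamts5. The genes were chosen by name. For each gene and stage, the entry that the deposited table lists as testable was kept, and where a gene had several such entries, the one with the highest sum of both genotypes. All 10 genes had a kept entry at 1 stage or more, of 15892 gene symbols with one in the series. Mmp2, Mmp14, Timp1, Timp2, Timp3, Adamts2 and Adamts5 had one at each of the 6 stages and Adamts1 at 5 stages, whereas Mmp9 had one at 2 stages and Mmp3 at 1, and the other stages of these 3 genes were not analysed here.

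Emerin is a protein of the inner nuclear membrane, and its loss causes an X-linked form of Emery-Dreifuss muscular dystrophy. RNA was sequenced from wildtype and emerin-null H2K cells, a conditionally immortalized line of mouse myogenic progenitors, in proliferation and on days 0, 1, 2, 3 and 4 of differentiation, which gave 12 samples. Wildtype and emerin-null proliferating cells, and the cells of day 0 after 24 h on the plate, were held in 20% fetal bovine serum with 20 units/ml γ-interferon at 10% CO2. Both genotypes were held in 5% horse serum at 5% CO2 on days 1 to 4. Each sample drew on 3 culture plates, the values used here are 1 per genotype and stage, and each genotype is 1 line, so a difference between genotypes cannot be told apart from a difference between lines.

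Matrix metalloproteinases (MMPs) and the ADAMTS proteases are zinc enzymes that are secreted or held at the cell surface and cut collagens, proteoglycans and other matrix proteins. Tissue inhibitors of metalloproteinases (TIMPs) bind their active sites. The membrane protease MMP14, together with TIMP2, forms the complex that activates pro-MMP2, so that TIMP2 serves both activation and inhibition. In skeletal muscle these enzymes take part in the migration and fusion of myoblasts and in the turnover of the matrix around myofibers.

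Levels are given in FPKM, fragments per kilobase of transcript scaled to the mapped fragments of the library, the scale on which Cuffdiff reports. Being per length, they can be set side by side between genes, but only roughly, since some entries cover only part of a gene. The 6 stages were normalized as 6 separate tables, so genotypes were compared only within a stage, as the log2 ratio of emerin-null over wildtype after 0.1 FPKM was added to both. Emd, the disrupted gene, spanned 13.6 to 62.1 FPKM in wildtype samples, whereas emerin-null values were at most 0.810 FPKM except on day 2, at 3.10 FPKM. Muscle markers, 6 to 8 of 8 by stage, summed to 1012 to 2554 FPKM in wildtype and 961 to 2541 FPKM in emerin-null samples. Des was not analysed here on day 4, nor Myh3 except on day 0. No listed endothelial marker reached 1 FPKM in any sample. Of 4 markers, 3 were listed in proliferation, 4 on day 1, 2 on days 0 and 2, and 1 on days 3 and 4. Sums of fibroblast markers spanned 55.7 to 708 FPKM in wildtype and 103 to 569 FPKM in emerin-null samples, over 4 to 6 of 8 markers that differed by stage: Lum and Tcf21 were not analysed here at any stage, nor Ly6a on days 2 to 4. In these bulk samples, fewer cells of a type and less RNA per cell cannot be told apart.

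Because no stage had replicate values, differences at a single stage are descriptions. A test was possible only across the stages: limma was fitted to the 6 log2 ratios of 11068 genes, first for a mean different from 0 and then for a slope over the stage order, with p-values adjusted over all genes. The stages are not replicates of one condition, so the mean asks whether a ratio stayed on one side through the time course relative to its spread between stages. By the mean, 975 genes (8.81%) had a ratio above 0 and 1164 (10.5%) one below 0, together 19.3% of those tested. By the slope, 469 ratios (4.24%) rose and 130 (1.17%) fell along the time course, together 5.41%. Of the 7 matrix genes tested, 1 was called by the mean (Mmp2, higher) and 1 by the slope (Timp2, falling), and with 7 genes a count of 1 sets the group apart from neither background. The median of the mean log2 ratio was -0.18 over the 7 genes and -0.01 over all genes, and the median slope was 0.17 and 0.02.

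Mmp2, the gelatinase that cuts denatured collagen and basement membrane collagen, was higher in emerin-null progenitors at every stage. Wildtype progenitors had 8.04 FPKM in proliferation and 11.3, 22.3, 11.6, 10.0 and 8.61 FPKM on days 0 to 4. Emerin-null progenitors had 18.0 FPKM in proliferation and 20.8, 36.8, 22.4, 21.2 and 19.9 FPKM on the same days. Both genotypes were highest on day 1. The log2 ratio was 1.16 in proliferation, 0.88, 0.72, 0.94 and 1.07 on days 0 to 3 and 1.20 on day 4. The mean was 0.99 (SE 0.07, 6 stages, limma adjusted p = 0.000311), about a doubling, and it stayed between 0.95 and 1.05 with any stage left out (adjusted p at most 0.00249). Other genes higher in emerin-null progenitors at all 6 stages included the progenitor markers Pax7 (mean 2.34, adjusted p = 0.00303) and Myf5 (1.19, adjusted p = 0.00304). They also included the macrophage marker Cd68 (0.88, adjusted p = 0.0219, at a locus shared with another gene name) and the pericyte marker Cspg4 (2.54, adjusted p = 0.000107). Cspg4 was at 0.248 to 0.478 FPKM in wildtype and 1.87 to 2.89 FPKM in emerin-null samples. It passed the minimum mean of 1 FPKM for the test only through the emerin-null samples. In the same lists the muscle enzyme Ckm was lower at 6 of 6 stages (-0.52, adjusted p = 0.0195), and Acta2, lower at 5 of 6, did not pass (-0.24, adjusted p = 0.141). The other genes tested in these lists did not pass by the mean either. They were Myod1 (0.06), Myog (0.05), Cdh15 (0.07), Pdgfrb (0.38), Tagln (0.06) and Itgam (-0.16, lower at 4 of 6 stages). Of the macrophage and neutrophil markers, Ptprc, Adgre1 and S100a8 were not analysed here, nor Csf1r except on days 0 and 1, nor Lyz2 except on day 1. Those listed at each stage summed to 14.6 to 106 FPKM in wildtype and 21.4 to 118 FPKM in emerin-null samples. Most of these sums was Cd68, at 27.2 FPKM in wildtype and 76.6 FPKM in emerin-null proliferating cells, and the part of these cell types in the Mmp2 ratio was not tested. The Mmp2 ratio showed no call for a slope (0.03 per stage, SE 0.04, adjusted p = 0.676). Mmp2 lies at chr8:92827291-92853420 (GRCm38), and its day 2 entry spans a locus that also carries the name Lpcat2; the ratio there was within the range of the other stages.

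Mmp14, the membrane-type protease that activates pro-MMP2, was the most abundant MMP message among the 4 in proliferating cells. In wildtype progenitors it stood at 81.1 FPKM in proliferation and at 47.5, 33.1, 20.95, 13.2 and 11.7 FPKM on days 0 to 4. In emerin-null progenitors it stood at 95.8 FPKM and then at 53.6, 32.5, 23.2, 20.2 and 25.5 FPKM. The wildtype values were lower at each later stage, while the emerin-null value of day 4 was above those of days 2 and 3. The log2 ratio lay between -0.03 and 0.24 through day 2, was 0.61 on day 3 and 1.12 on day 4. Neither its mean (0.38, SE 0.15, adjusted p = 0.118) nor its slope (0.17, SE 0.06, adjusted p = 0.142) passed the limma test. Entries of days 0 and 1 span a locus shared with Mrpl52, a mitochondrial ribosomal protein gene, and at those stages the ratio was near 0.

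The other 2 MMPs were at trace levels. Mmp9, the second gelatinase, had 0.107 FPKM in wildtype and 0.659 FPKM in emerin-null progenitors on day 0, and 0.0529 and 0.322 FPKM on day 3. Mmp3, stromelysin-1, which cuts proteoglycans and activates other pro-MMPs, had 0.615 FPKM in wildtype and 0.426 FPKM in emerin-null progenitors on day 4. All 6 values are below the minimum of 1 FPKM used for counts and tests, and their depth is unknown, so no fold is drawn from them.

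**Figure D1:**
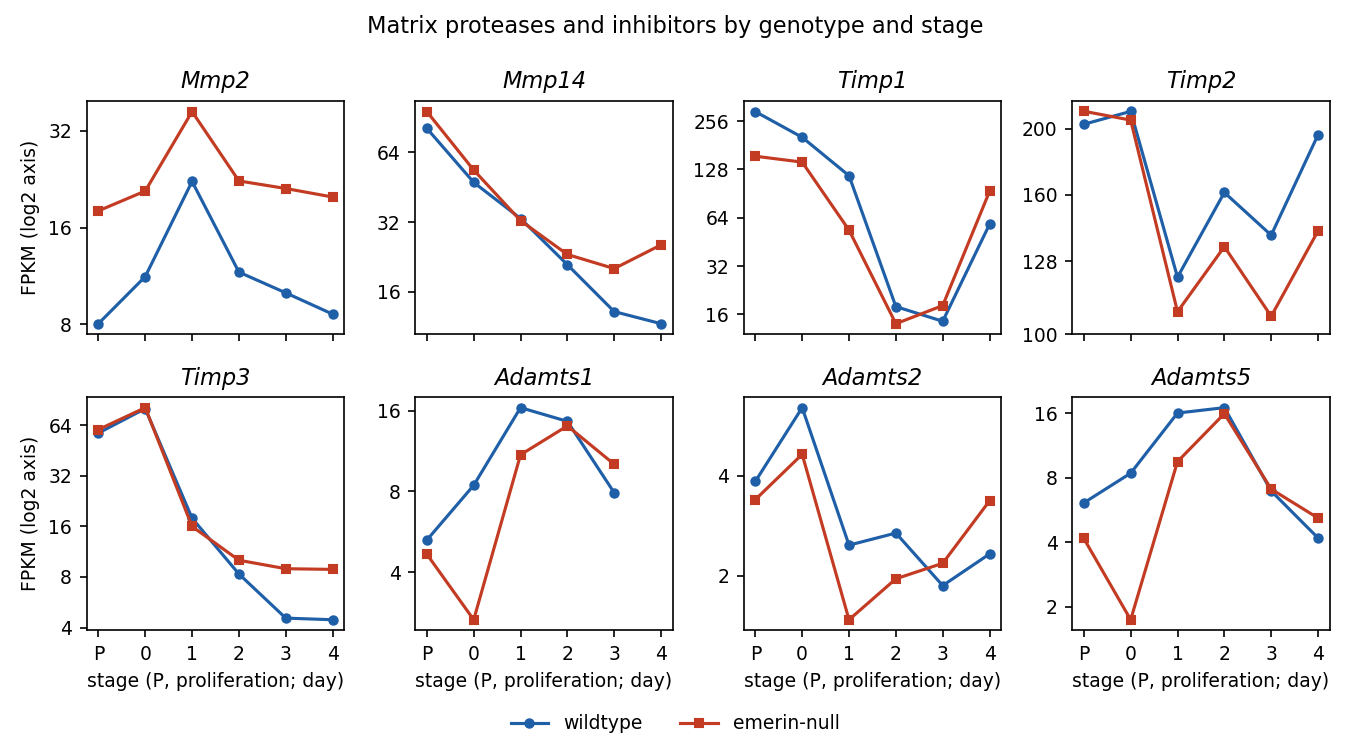
FPKM (log2 axis, 1 value per genotype and stage, no error available) of the 8 genes above 1 FPKM against stage, from proliferation (P) to day 4, in wildtype (circles) and emerin-null (squares) progenitors. The emerin-null line of Mmp2 lies above the wildtype line throughout, the lines of Timp1 cross between days 2 and 3, and those of Adamts1 and Adamts5 stand farthest apart on day 0.

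Timp2 was the most steadily expressed inhibitor, and its genotype ratio fell step by step along the time course. Wildtype progenitors had 203 FPKM in proliferation and 212, 121, 161, 140 and 196 FPKM on days 0 to 4. Emerin-null progenitors had 212 FPKM in proliferation and 206, 108, 134, 106 and 142 FPKM. The genotypes were close in proliferation and on day 0 and farthest apart on day 4. The log2 ratio was 0.06 in proliferation and -0.04, -0.17, -0.26, -0.39 and -0.47 on days 0 to 4, lower at each stage than at the one before. Its slope was -0.11 per stage (SE 0.02, 6 stages, limma adjusted p = 0.0345). The call rested on having all 6 stages: with proliferation or any 1 of the 5 days left out, the slope stayed at about -0.11 but the adjusted p was 0.0506 to 0.185. The mean was -0.21 (SE 0.08, adjusted p = 0.0978).

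Timp1, the inducible and secreted inhibitor, covered the widest range of the 3 TIMPs. In wildtype progenitors it was at 294 FPKM in proliferation and at 203, 117, 17.9, 14.5 and 58.3 FPKM on days 0 to 4. In emerin-null progenitors it was at 155 FPKM and then at 142, 53.6, 14.0, 18.1 and 93.5 FPKM. Emerin-null values were thus below wildtype through day 2 and above it on days 3 and 4, and in both genotypes day 4 stood well above day 3. The log2 ratio was -0.92, -0.51, -1.13 and -0.35 from proliferation to day 2, then 0.32 and 0.68. The slope was 0.32 per stage (SE 0.08, adjusted p = 0.0640) and passed the threshold only with day 1 left out (0.30, adjusted p = 0.0419), and the mean was -0.32 (SE 0.24, adjusted p = 0.388).

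Timp3, the inhibitor that binds to the matrix itself and also inhibits ADAMTS proteases, had nearly equal levels in both genotypes until day 1. Wildtype progenitors had 57.5, 80.3, 17.9, 8.33, 4.55 and 4.45 FPKM from proliferation to day 4. Emerin-null progenitors had 60.2, 81.4, 16.0, 10.1, 8.96 and 8.87 FPKM. Levels in both were far lower from day 1 on than on day 0, and on days 3 and 4 the emerin-null level stayed near 9 FPKM while the wildtype level was near 4.5 FPKM. The log2 ratio was between -0.16 and 0.27 through day 2, 0.96 on day 3 and 0.98 on day 4. The slope (0.22, SE 0.06, adjusted p = 0.0745) and the mean (0.36, SE 0.17, adjusted p = 0.190) did not pass the test.

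Reads at 3 of these loci may come from a second gene. Timp1 (chrX:20870166-20874735) lies inside Syn1 and Timp3 (chr10:86300372-86349506) inside Syn3, in both cases on the opposite strand, and the entries of both carry the synapsin name at every stage. Timp2 (chr11:118301069-118355740) shares its strand with Cep295nl, and its entries carry the clone name BC100451. Whether the counting used strand is not given in the sources used here, so the shares of the partner genes in these values are uncertain.

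Promoter windows from RefSeq (GRCm38.p6; 250 bases before the start and the first 30 after it) were found for 7 of the 10 genes. They are shown for the 3 TIMPs, whose genotype ratios went different ways, and for Mmp3, the only one of the 7 with the AP-1 type motif TGANTCA (either strand), in capitals. That motif was present in 7.46% of 32851 mouse promoter windows of the same length, a set that leaves out 1 chromosome. Timp1 (chrX:20869916-20870195, plus strand) has 55% GC and 7 CpG, Timp2 (chr11:118355382-118355661, minus strand) 68.9% GC and 24 CpG, Timp3 (chr10:86300162-86300441, plus strand) 67.1% GC and 22 CpG, and Mmp3 (chr9:7445572-7445851, plus strand) 38.9% GC and 1 CpG, against medians of 52.5% and 6 CpG over all windows.
Timp1: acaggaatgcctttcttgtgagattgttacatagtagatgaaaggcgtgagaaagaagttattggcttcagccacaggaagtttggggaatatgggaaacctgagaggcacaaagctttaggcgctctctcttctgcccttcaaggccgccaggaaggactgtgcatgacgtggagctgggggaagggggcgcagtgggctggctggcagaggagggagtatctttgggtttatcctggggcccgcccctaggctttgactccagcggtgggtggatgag
Timp2: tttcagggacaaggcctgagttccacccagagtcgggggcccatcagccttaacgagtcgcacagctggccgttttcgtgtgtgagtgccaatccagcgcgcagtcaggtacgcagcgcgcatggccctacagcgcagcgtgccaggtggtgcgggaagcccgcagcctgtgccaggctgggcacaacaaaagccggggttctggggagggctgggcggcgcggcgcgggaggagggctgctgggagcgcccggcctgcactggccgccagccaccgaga
Timp3: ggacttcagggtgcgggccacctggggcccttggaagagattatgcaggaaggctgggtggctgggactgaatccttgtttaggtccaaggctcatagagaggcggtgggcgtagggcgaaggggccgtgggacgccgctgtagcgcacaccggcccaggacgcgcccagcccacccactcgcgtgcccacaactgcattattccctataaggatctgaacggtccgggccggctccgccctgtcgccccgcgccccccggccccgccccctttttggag
Mmp3: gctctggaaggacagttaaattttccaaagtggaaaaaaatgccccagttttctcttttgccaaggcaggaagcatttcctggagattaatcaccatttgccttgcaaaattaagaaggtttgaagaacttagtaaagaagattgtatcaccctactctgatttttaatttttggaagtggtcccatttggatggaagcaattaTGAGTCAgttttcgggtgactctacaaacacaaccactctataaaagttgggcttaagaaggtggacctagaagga
The Mmp3 match begins 46 bases before the start. The inhibitor with the widest range of levels, Timp1, has a window close to the median, and the steadily expressed Timp2 has one rich in CpG, but so does Timp3, whose levels spanned 4.45 to 81.4 FPKM. A match or its absence is a description of these letters only.

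The 3 ADAMTS genes followed here were lower in emerin-null progenitors early and near or above wildtype late. Adamts5 and Adamts1, aggrecan- and versican-cutting proteases, are neighbours: they lie on the minus strand of chromosome 16 at chr16:85856173-85901828 and chr16:85793827-85803113, 53059 bases apart with 0 annotated protein-coding genes between them. Adamts5 had 6.10, 8.39, 16.0, 17.0, 6.93 and 4.19 FPKM from proliferation to day 4 in wildtype progenitors. It had 4.17, 1.74, 9.50, 15.9, 7.08 and 5.19 FPKM in emerin-null progenitors. The wildtype level was thus higher on day 0 than in proliferation and the emerin-null level lower. The log2 ratio of day 0 was -2.20, the farthest from 0 of any of the 10 genes at any stage where it exceeded 1 FPKM. The ratio was -0.54 in proliferation, -0.75 on day 1, and between -0.09 and 0.30 from day 2 on.

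Adamts1 showed the same day 0 dip. Wildtype progenitors had 5.26, 8.43, 16.4, 14.6 and 7.90 FPKM from proliferation to day 3, and emerin-null progenitors had 4.66, 2.66, 10.9, 14.0 and 10.1 FPKM. Its log2 ratios were -0.17, -1.63, -0.58, -0.06 and 0.35, so that day 0 was the lowest for both neighbours and day 2 was near 0 for both. Neither gene passed the test over the stages. Adamts5 had a mean of -0.54 (SE 0.31, adjusted p = 0.258) and a slope of 0.33 (SE 0.14, adjusted p = 0.192). Adamts1 was tested over the 5 stages without day 4, in a fit of 11257 genes in which 16.2% were called by the mean; its mean was -0.42 (SE 0.28, adjusted p = 0.338) and its slope 0.26 (SE 0.18, adjusted p = 0.506). No gene was called by the slope in that limma fit, where 1206 slopes above 0 and 666 below 0 had an unadjusted p under 0.05.

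Adamts2, the procollagen N-proteinase that trims fibrillar procollagens, was the least abundant of the ADAMTS genes followed in every sample but the emerin-null one of day 0, with Adamts5 alone to compare on day 4. It had 3.85, 6.41, 2.47, 2.69, 1.87 and 2.33 FPKM in wildtype and 3.39, 4.64, 1.47, 1.96, 2.18 and 3.36 FPKM in emerin-null progenitors. The log2 ratio was lowest on day 1 (-0.71) and highest on day 4 (0.51), again below 0 through day 2 and above it afterwards. Its mean (-0.18, SE 0.17, adjusted p = 0.477) and slope (0.16, SE 0.08, adjusted p = 0.228) did not pass the test.

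**Figure D2:**
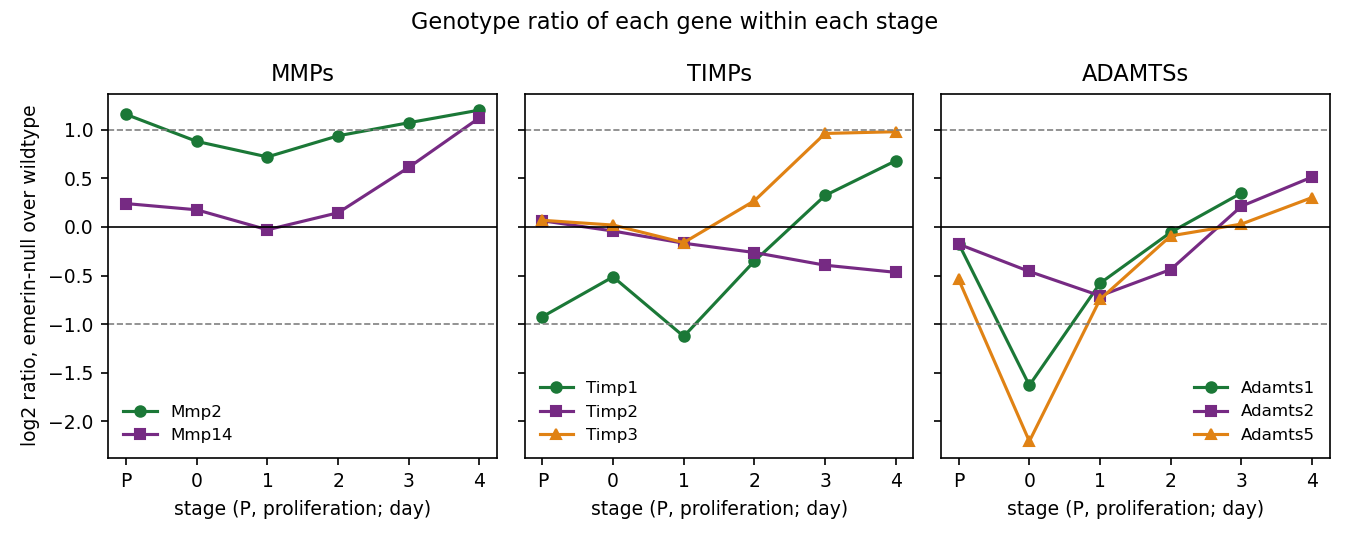
Log2 ratio of emerin-null over wildtype FPKM within each stage, from proliferation (P) to day 4, for MMPs, TIMPs and ADAMTS genes (1 value per stage; dashed lines mark 2-fold, the solid line equality). Mmp2 stays between 0.72 and 1.20, Timp2 goes down from 0.06 to -0.47, and Adamts5 and Adamts1 reach -2.20 and -1.63 on day 0.

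Counted at 2-fold, few of the genes were apart at any one stage, and Mmp2 was the one gene past it at more than 1 stage. In proliferation 1 of 8 genes above 1 FPKM was past 2-fold higher (Mmp2) and 0 were lower, where 2.94% of all genes were higher and 2.74% lower, together 5.68%. On day 0, 0 of 8 were higher and 2 were lower (Adamts1 and Adamts5), against 2.39% and 3.68%, together 6.07%. Day 1 had 0 of 8 higher and 1 lower (Timp1), against 2.64% and 2.46%, together 5.1%. The first 3 stages thus had 1 gene above and 3 below, and the last 3 had none below. On day 2 the count was 0 of 8 in either direction, against 3.57% higher and 2.22% lower, together 5.79%. Day 3 had 1 of 8 higher (Mmp2) and 0 lower, against 4.13% and 2.73%, together 6.86%. Day 4 had 2 of 7 higher (Mmp2 and Mmp14) and 0 lower, against 6.22% and 2.84%, together 9.05%. With 7 or 8 genes, 1 gene moves the share by far more than these backgrounds, so the counts set no stage apart. The median log2 ratio of the genes was -0.05, -0.25, -0.37, -0.07, 0.34 and 0.68 from proliferation to day 4, while that of all genes was -0.02, -0.03, -0.05, -0.01, -0.00028 and 0.05. Of the genes counted, 4 of 8 were above 0 in proliferation, 3 of 8 on day 0, 1 of 8 on day 1 and 3 of 8 on day 2. On day 3 it was 7 of 8 and on day 4 it was 6 of 7, Timp2 being the gene below 0 on both days. The share of all genes above 0 was not counted, so these ratios are not read as a shift of the group. The fibroblast markers had sums of 187 FPKM in wildtype and 173 FPKM in emerin-null progenitors on day 1, 71.3 and 103 FPKM on day 3 and 55.7 and 111 FPKM on day 4, and their part in these ratios was not tested. On days 3 and 4 these sums were nearly all Col3a1 (69.2 and 101 FPKM, then 53.1 and 108 FPKM). Dcn was lower in emerin-null progenitors, at 1.47 FPKM in wildtype and 0.50 FPKM in emerin-null progenitors on day 3 and at 2.27 and 1.41 FPKM on day 4. Other markers were below 1 FPKM and higher in emerin-null progenitors. Pdgfra had 0.136 and 0.418 FPKM on day 3 and 0.281 and 0.385 FPKM on day 4. Dpt had 0.478 and 0.939 FPKM, then 0.101 and 0.393 FPKM, and Thy1 had 0.0102 and 0.586 FPKM on day 4.

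**Figure D3:**
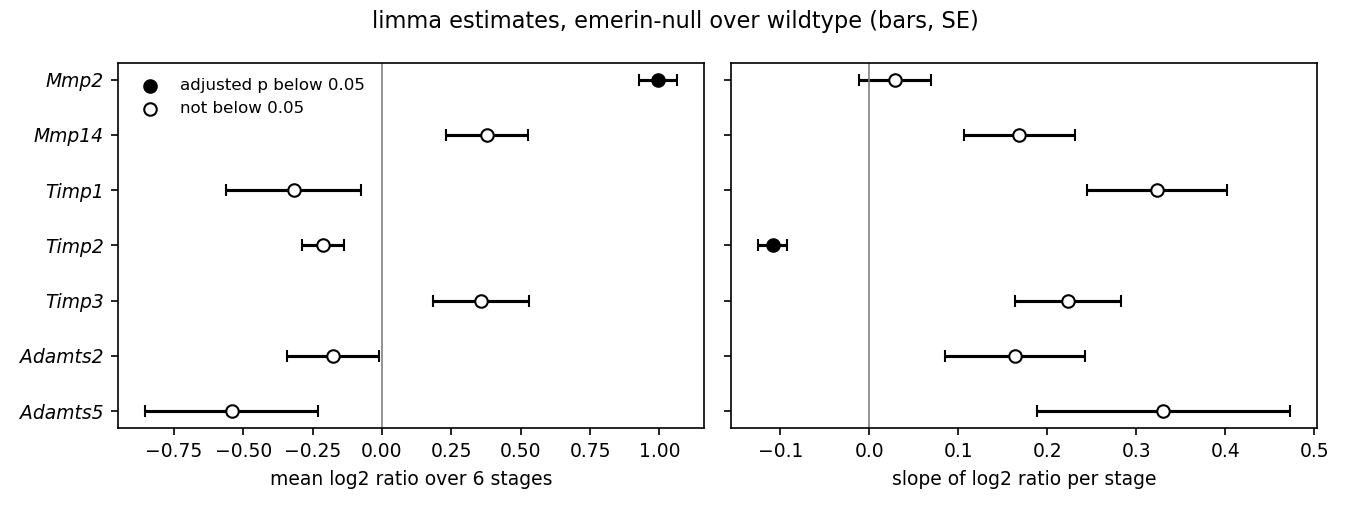
Mean log2 ratio over 6 stages (left) and slope of the log2 ratio per stage (right) for the 7 genes tested, as limma estimates with bars of 1 SE; filled points have an adjusted p below 0.05. Only Mmp2 (mean 0.99) and Timp2 (slope -0.11) are filled.

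The 3 TIMPs summed to more message than the kept MMPs, 2 or 3 of the 4 by stage, in every sample, by less in emerin-null progenitors. The summed FPKM of Timp1, Timp2 and Timp3 over that of the kept MMPs was 6.22 in wildtype and 3.75 in emerin-null proliferating cells, 8.42 and 5.72 on day 0, and 4.62 and 2.56 on day 1. It was 5.75 and 3.48 on day 2, 6.83 and 3.20 on day 3, and 12.4 and 5.32 on day 4. The wildtype ratio was higher at all 6 stages, 1.47-fold on day 0 at the least and 2.33-fold on day 4 at the most. Without Timp1 it was still higher at each stage, by 1.22-fold in proliferation and 2.92-fold on day 4. Both sums differed between genotypes. On day 4 the MMPs summed to 20.9 FPKM in wildtype and 45.9 FPKM in emerin-null progenitors, and the TIMPs to 259 and 244 FPKM, whereas in proliferation the TIMPs stood at 554 and 427 FPKM. The other MMPs, with entries of any status, summed to 34.1 to 195 FPKM in wildtype and 34.4 to 336 FPKM in emerin-null samples, both highest on day 1. Most of both day 1 sums was Mmp24, at 150 FPKM in wildtype and 291 FPKM in emerin-null progenitors. Mmp24 was uneven between stages, at 132 and 68.3 FPKM in proliferation and 16.7 and 14.5 FPKM on day 0. It was not analysed here on days 2 to 4. The other MMPs were then included, a choice made after seeing the data. The ratio was 2.11 and 1.87 in proliferation, 1.02 and 0.438 on day 1 and 4.71 and 3.04 on day 4. It was lower in emerin-null than wildtype progenitors at each of the 6 stages. The value below 1, in the emerin-null sample of day 1, rests largely on Mmp24. ADAMTS proteases are not counted in these ratios, which were not tested.

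**Figure D4:**
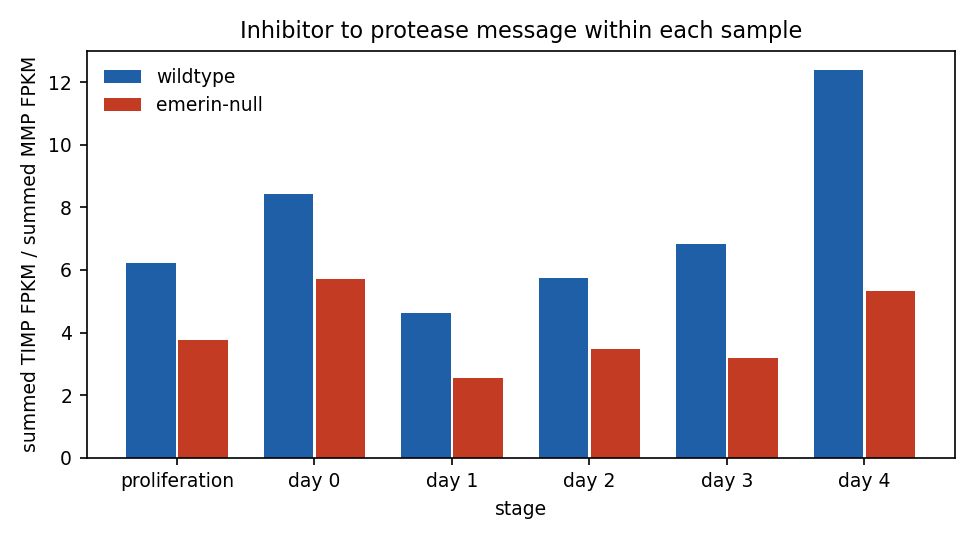
Summed FPKM of the 3 TIMPs divided by that of the kept MMPs in each of the 12 samples. The kept MMPs were 2 or 3 of the 4 followed, by stage. Bars start from 0, with 1 value per genotype and stage and no error available. The wildtype bar is the taller at every stage, 12.4 against 5.32 on day 4.

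Genes around these proteases showed a few calls of their own. In the plasminogen system, a serine protease cascade that also activates pro-MMPs, 5 of 8 genes were tested, and 1 was called by the mean and 1 by the slope. Plat, tissue plasminogen activator, was higher in emerin-null progenitors at 6 of 6 stages, from 10.6 against 5.87 FPKM in proliferation to 6.37 against 2.00 FPKM on day 4 (mean log2 ratio 0.79, SE 0.16, limma adjusted p = 0.0188; 0.0592 at most with a stage left out, the call being lost without day 2 or day 3). The ratio of Plaur, the urokinase receptor, went from -0.33 in proliferation to 1.44 on day 4 (slope 0.31, SE 0.06, adjusted p = 0.0464), a call lost with any of the 6 stages left out (adjusted p 0.0535 to 0.227).

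Among 12 genes for activation, anchoring and clearance of MMPs, 9 were tested and 1 was called by the mean. Thbs2, thrombospondin-2, a matrix protein known to bind MMP2 and promote its uptake, was lower in emerin-null progenitors at 6 of 6 stages. It had 12.7, 12.6, 9.46, 5.76, 5.37 and 6.18 FPKM from proliferation to day 4 in wildtype and 3.10, 1.38, 3.54, 2.71, 2.90 and 4.42 FPKM in emerin-null progenitors. The mean log2 ratio was -1.48 (SE 0.33, adjusted p = 0.0235), and the call was lost without proliferation, day 1 or day 2 (adjusted p at most 0.0616). Itgb3, an integrin subunit, and Cd44, a hyaluronan receptor, had means of 0.52 and -0.45 that did not pass the test. Pcsk6, a proprotein convertase, had a mean of -12.04 that did not pass either (SE 3.83, adjusted p = 0.0692) and that depends on the pseudocount, since its kept entries are listed at 0.151 to 111660 FPKM in wildtype and at 0 in 4 of the 6 emerin-null samples.

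Of 7 cathepsins and cystatins, 5 were tested, and Ctsb, the lysosomal cysteine protease cathepsin B, was called lower (mean -0.35, SE 0.07, adjusted p = 0.0164, lower at 6 of 6 stages, at a locus shared with another gene name; lost without day 1 or day 3, adjusted p at most 0.0529). Of 16 other ADAMTS genes 7 were tested, and Adamts4 was called lower by a small margin (mean -0.16, SE 0.04, adjusted p = 0.0308, 6 of 6 stages, also at a shared locus), a call lost without day 0, 1, 2 or 3 (adjusted p at most 0.0994). Adamts3, a second procollagen N-proteinase, had a mean of 1.07 that did not pass (SE 0.41, adjusted p = 0.114), nor did the means of Adamts12 (0.66) and Adamts10 (0.50). None of the 4 other MMPs tested of 19 (Mmp11, Mmp15, Mmp23 and Mmp25) and none of the 5 of 8 ADAM genes passed limma's mean or slope; their means lay between -0.30 and 0.23. Of 8 matrix substrates 6 were tested, and 1 was called: the ratio of Col3a1, a fibrillar collagen chain, went from -0.10 in proliferation to 1.03 on day 4 (slope 0.25, SE 0.05, adjusted p = 0.0468), lost with any 1 of the 5 days left out (adjusted p at most 0.237).

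The genes whose 12 values of log2(FPKM + 0.1) followed each gene most closely, up to 3 for each, were sought among 6402 or 6403 genes alone at their locus, as a description by Pearson correlation. For Mmp2 they were D0H4S114 (0.96), Crabp2 (0.94) and Cmip (0.94). For Mmp14 they were Txndc5 (0.99), Gpr125 (0.99) and Arhgap21 (0.98), and for Timp3 they were Sfxn1, Ext1 and Gna12 (all 0.99). Timp1 was followed by Panx1 (0.96), Ier5l (0.96) and E2f8 (0.96). Timp2 was followed less closely, by Abcf2 (0.91) and Klhdc4 (0.90). Adamts2 was followed by Klf13 (0.93), Ptpn1 (0.92) and Fam125a (0.92), and Adamts5 by Dpysl5 (0.92), Sema3c (0.91) and Ccdc88c (0.90). The 12 values share 6 stages and 2 lines, and no p is given. The 6 stages were normalized separately, so differences in normalization between stages also enter these correlations.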

How the data were processed

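RNA-seq values of 12 samples were used as deposited. Per the labels and the study's methods, libraries were sequenced on an Illumina HiScan-SQ, and the submitters' processing notes name FastQC, TopHat, Cuffdiff and the mouse build mm10, with no versions. The authors deposited 6 Cuffdiff tables, 1 per stage, with 1 wildtype and 1 emerin-null value per entry on the FPKM scale, which was read from the table layout because no header names it. Single plates were not analysed here, and the depth is unknown. The fold, p and q columns hold the authors' own comparisons and were not used. Entries with names turned into dates were left out. Loci count as shared where another gene name stands at them, clone names and small RNAs aside, so Timp2 counts as unshared.

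Entries with the status OK were kept, 1 per gene and stage. The log2 ratio of emerin-null over wildtype used a pseudocount of 0.1 FPKM, which understates the change of low genes. Counts at 2-fold used genes with at least 1 FPKM in a genotype. The limma fits (limma 3.58.1, R 4.3.3, moderated with a trend, two-sided, Benjamini-Hochberg, threshold 0.05) used 11068 genes with entries at all 6 stages and a mean of at least 1 FPKM, and were tested on simulated data. P-values measure only the spread between stages. The genes and lists were chosen with earlier results of these data known. Outside the 10 genes, named genes are those called in a list, up to 3 more per list by the size of the mean, and the 3 closest followers; some of these are not reported here. Alternatives were another pseudocount, summed entries, entries of any status, centring, no FPKM filter, another fold, unshared loci, no trend and each stage left out.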

Additional observations from a re-analysis of the deposited data

Results flagged for a closer look

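The genotype ratio of Timp2 differed between stages by a test of the difference itself: its log2 ratio of emerin-null over wildtype fell along the 6 stages with a slope of -0.11 per stage (SE 0.02, limma adjusted p = 0.0345). Over all genes, 469 slopes rose and 130 fell, 5.41% of 11068. The ratio was 0.06 in proliferation and -0.47 on day 4, and it was lower at each stage than at the one before. With proliferation or any 1 of the 5 days left out the call was lost (adjusted p 0.0506 to 0.185). Timp2 entries carry a clone name beside that of Timp2 at every stage, and the part of reads from that gene was not tested.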

How the results depend on the processing

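The mean of Mmp2 and the slope of Timp2 kept their direction under each alternative that included them, and the Mmp2 call held in all 12 of its own. The fit of unshared loci did not include Mmp2, since its day 2 entry carries a second gene name. The Timp2 call held under the 7 alternatives that keep all stages (adjusted p 0.0264 to 0.0387) and was lost in each of the 6 limma fits with 1 stage left out. Among the 7, the fit of unshared loci held Timp2 only because clone names are set aside. It therefore does not test reads from the second gene at that locus. The slope of Mmp2, which was not called, was between -0.011 and 0.0996 with a stage left out, below 0 without day 4. Genes called by the mean numbered 513 to 871 above 0 and 601 to 1084 below 0 with a stage left out, and 766 below 0 among unshared loci, where fewer genes were tested. Genes called by the slope numbered 0 to 420 above 0 and 0 to 36 below 0 with a stage left out, chosen after seeing the data, against 469 and 130 with all stages. Below 0 they numbered 224 after centring and 77 without the trend, and the cause was not tested; 78.3% of called slopes were above 0 as deposited and 65.9% after centring. At 1.5-fold the members apart numbered 1 higher and 1 lower in proliferation, 1 higher and 2 lower on day 0, 1 higher and 3 lower on day 1, 1 higher and 0 lower on day 2, 3 higher and 0 lower on day 3 and 4 higher and 0 lower on day 4. On day 0, 1 member was past 2-fold higher with summed entries and 1 with no filter, and on day 3 there were 2 with no filter (Mmp9, below 1 FPKM, among them). The slope calls of Plaur (adjusted p at most 0.0522, with pseudocount 1 or without the trend) and Col3a1 (0.0539, without the trend) were also lost. The fits pair the genotypes by stage; a block by replicate number could not be fitted, since each group holds 1 sample.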
